A study of Homo sapiens with 2 samples.

Results

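NEAT1, its paraspeckle partners and a pair of other nuclear noncoding RNAs, 7 genes in all, were followed in HGC-27, a cell line from a human gastric carcinoma. They were chosen by gene symbol: the long noncoding RNA genes NEAT1, MALAT1 and KCNQ1OT1, and the protein genes SFPQ, NONO, PSPC1 and RBM14. All 7 were found among the 63677 genes of the count table, each as 1 row, and all 7 were among the 15440 genes measured at a mean of at least 1 count per 1000000 reads (CPM). The study compared 1 culture transfected with pcDNA3.1-lncPSCA, which drives the long noncoding RNA lncPSCA, with 1 culture given the empty vector pcDNA3.1, called control here. Both cultures received the transfection reagent INTERFERin and were collected 48 hours later, and total RNA was sequenced. With 1 library per group there is no test between the groups, no difference below has a replicate check, and the spread between cultures was not measured.

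A paraspeckle is a body in the nucleus that forms around NEAT1 RNA as it is transcribed. NEAT1 is made in a short, polyadenylated form and in a long form that ends without a poly(A) tail, and it is the long form that builds the body. SFPQ, NONO and PSPC1 are RNA-binding proteins of the DBHS family that pair with one another and coat NEAT1, and RBM14 helps to assemble the bodies. NEAT1 is known to be induced by viral infection, double-stranded RNA and several forms of cell stress. MALAT1 lies next to NEAT1 on chromosome 11 and its RNA collects in nuclear speckles, the stores of splicing factors. KCNQ1OT1 is an unspliced antisense RNA, made from the paternal allele, that silences neighbouring imprinted genes.

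The ends of the 2 forms of NEAT1 show what the counts cannot separate, since the table holds 1 value per gene and not per isoform. The 3′ ends of a long and a short NEAT1 model and of the longest MALAT1 model are shown 5′ to 3′, from GENCODE release 29 (GRCh38, plus strand). In NEAT1-202, a single-exon model of 22743 bases ending at chr11:65445441-65445540, the capitals mark the final 10 bases and, upstream of them, their exact reverse complement. Such A-rich and U-rich stretches pair into the triple helix that protects the long form in place of a tail. In NEAT1-208, a model of 2994 bases ending at chr11:65426434-65426513, and in MALAT1-202, a model of 8708 bases ending at chr11:65506390-65506469, the capitals mark the AATAAA polyadenylation signal, which lies 5 and 17 bases before the end. MALAT1 RNA also has a triple helix and is cut at its 3′ end by the enzyme RNase P. The end of the MALAT1-202 model therefore need not be the end of the mature RNA.
NEAT1-202: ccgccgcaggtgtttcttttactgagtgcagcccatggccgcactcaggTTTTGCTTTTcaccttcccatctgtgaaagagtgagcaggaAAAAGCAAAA
NEAT1-208: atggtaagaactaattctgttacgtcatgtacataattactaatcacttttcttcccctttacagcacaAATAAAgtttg
MALAT1-202: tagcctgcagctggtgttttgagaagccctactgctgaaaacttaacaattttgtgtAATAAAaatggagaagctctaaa
Whether the RNA was selected for poly(A) tails or depleted of ribosomal RNA is not given in the sources used here, so the share of each form among the NEAT1 reads is not known.

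The lncPSCA library held 23016646 counts and the control library 21552098. Reads of PSCA, the gene whose locus gives lncPSCA its name, numbered 28699 in the lncPSCA library and 22 in the control library. A gene is called higher or lower in the lncPSCA library if its mean is at least 1 CPM, its log2 ratio is at least 1 in size, and its 95% counting interval lies wholly beyond 1.5-fold. Of the 15440 measured genes, 3.02% were higher and 0.596% were lower, and the median log2 ratio was -0.02. Of the epithelial markers, EPCAM, KRT19 and TFF1 were at or near 0 in both libraries, KRT18 had 0 reads in the lncPSCA library and 4 in the control library, and KRT8 had 2.47 CPM in the lncPSCA library and 3.13 CPM in the control library. VIM, the mesenchymal filament vimentin, was at 2594 CPM in the lncPSCA library and 2601 CPM in the control library. Of the 13 fibroblast, leukocyte and endothelial markers 7 were measured and none was higher or lower; summed, the 13 came to 3272 CPM in the lncPSCA library and 2958 CPM in the control library. COL1A1 and COL3A1 were abundant, with 1042 and 1947 CPM in the lncPSCA library against 1112 and 1557 CPM in the control library, whereas CD3E, PECAM1 and CDH5 had no reads. The labels give the cells as a gastric adenocarcinoma line, and the defining epithelial keratins and EPCAM were thus nearly absent from both libraries alike.

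NEAT1 and KCNQ1OT1 were higher in the lncPSCA library, and the other 5 genes met the rule in neither direction. The 2 of 7 that were higher stand beside the 3.02% of all measured genes that were. All 3 noncoding genes had a log2 ratio above 0, and all 4 protein genes had one below 0. The value for NONO turned slightly positive (0.02) when ratios were centred along mean expression. Of all measured genes, 48.1% had a log2 ratio above 0. The share was 52.8% of the other long noncoding genes and 47.6% of the protein-coding genes, so these kinds, taken whole, differed little in sign. Of the 558 other long noncoding genes with a mean of at least 10 CPM, the share was 37.6%.

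NEAT1 (ENSG00000245532, chr11:65422774-65445540 in GRCh38) had 4491 reads in the lncPSCA library and 1798 in the control library. This is 191 CPM (95% counting interval 185 to 197) against 85.2 CPM (81.3 to 89.2), a fold of 2.24 (2.12 to 2.37) and a log2 ratio of 1.16. Counting intervals cover counting error only. Of all measured genes, 97.3% had a lower log2 ratio than NEAT1. In each library NEAT1 was the most abundant of the 3 noncoding members, with 85.5% of their reads in the lncPSCA library and 81.2% in the control library. By mean level it ranked 36 among 2078 measured long noncoding genes, and by log2 ratio it ranked 58. Among the most abundant of these 2078 are models antisense to abundant coding genes, such as TUBA1B-AS1 and VIM-AS1, named after their values were seen. Without a stated strand setting their reads and those of the coding genes cannot be told apart, so ranks in this class are uncertain. Among the 5837 other measured genes with a symbol and at least 25% of its mean CPM, those nearest to NEAT1 in log2 ratio over the 2 libraries were RANBP2, a nucleoporin, TRIM5, a retroviral restriction factor, and UNC93B1, which carries Toll-like receptors to endosomes. Their log2 ratios were 1.16, 1.17 and 1.16.

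KCNQ1OT1 (ENSG00000269821, chr11:2608328-2699994 in GRCh38, minus strand) had 285 reads in the lncPSCA library and 92 in the control library. It was at 12.1 CPM (10.8 to 13.6) against 4.36 CPM (3.52 to 5.35), a fold of 2.78 (2.19 to 3.56) and a log2 ratio of 1.47. This was the widest counting interval of the 7 genes, since its reads were fewest. KCNQ1OT1, a single-exon gene, lies wholly inside KCNQ1, a potassium channel gene on the opposite strand. Whether counting used strand is not stated. Without strand, reads from KCNQ1 introns in that span would count as KCNQ1OT1, and reads where exons of both overlap cannot be told apart. How many of the KCNQ1OT1 reads come from KCNQ1 is thus not known. KCNQ1 itself had 29 reads in the lncPSCA library and 12 in the control library, under the level of measured genes.

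MALAT1 (ENSG00000251562, chr11:65497688-65506516 in GRCh38) had 479 reads in the lncPSCA library and 324 in the control library. Its 20.4 CPM (18.6 to 22.3) against 15.4 CPM (13.7 to 17.1) gave a fold of 1.33 (1.15 to 1.53), which fell short of the rule. MALAT1 ranked 332 by mean level among the 2078 measured long noncoding genes, with the same uncertainty as for NEAT1. NEAT1 had 9.38 reads per read of MALAT1 in the lncPSCA library and 5.55 in the control library. The ratio of these values was 1.69 (1.45 to 1.97), a comparison inside each library that needs no scaling between them. The antisense gene AP000769.2, which overlaps MALAT1 by 396 bases, had 0 and 4 reads in the lncPSCA and control libraries.

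**Figure D1:**
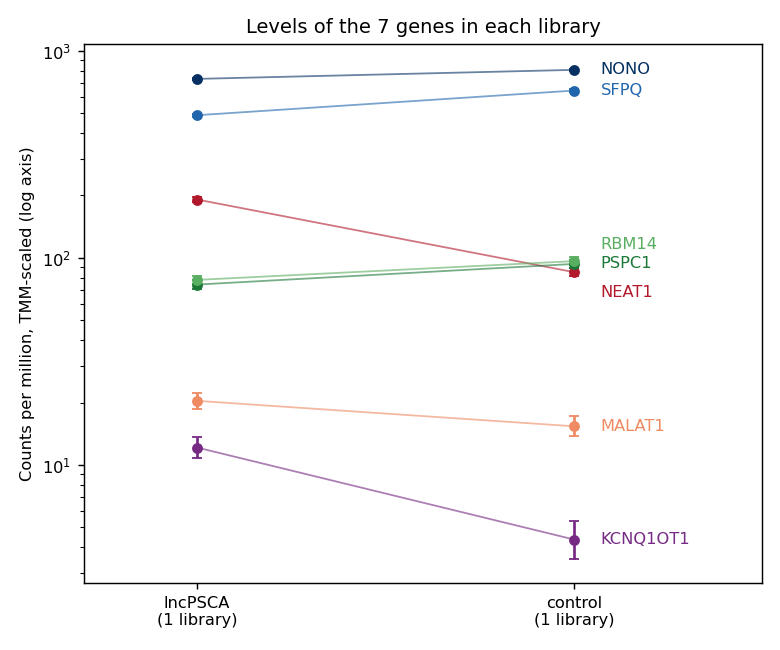
Level of each of the 7 genes in CPM (log axis) in the lncPSCA library and the control library; points are single libraries, bars are exact 95% counting intervals and lines join the values of 1 gene. NEAT1 stands at 191 CPM in the lncPSCA library and 85.2 CPM in the control library, which puts it above PSPC1 and RBM14 in the first and below both in the second.

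The 4 paraspeckle protein genes were neither higher nor lower by the rule. SFPQ, a splicing factor, had 11469 reads in the lncPSCA library and 13539 in the control library. It was at 488 CPM against 642 CPM, a fold of 0.760 (0.742 to 0.779) and a log2 ratio of -0.40, the lowest of the 7. NONO, its usual partner, had 17176 and 17044 reads in the lncPSCA and control libraries, or 731 and 808 CPM. The fold of NONO was 0.904 (0.885 to 0.924). PSPC1, the protein through which paraspeckles were first described, had 1745 and 1970 reads in the lncPSCA and control libraries, or 74.2 and 93.4 CPM, a fold of 0.795 (0.745 to 0.848). RBM14, a coactivator with a prion-like domain, had 1838 and 2032 reads in the lncPSCA and control libraries, or 78.2 and 96.3 CPM, a fold of 0.812 (0.762 to 0.865). None of these folds reached the size that the rule asks for, and how they compare with the spread between cultures is not known. In bulk RNA, fewer cells that express a gene and less RNA per cell cannot be told apart.

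The proportion of NEAT1 to its protein partners, taken inside each library, was higher in the lncPSCA library. Taking it inside a library removes scaling but not the trend with transcript length described below. The intervals here cover counting error only. There were 13.9 NEAT1 reads per 100 reads of the 4 protein genes in the lncPSCA library and 5.20 in the control library, a ratio of 2.68 (2.53 to 2.84). Against SFPQ alone there were 39.2 NEAT1 reads per 100 in the lncPSCA library and 13.3 in the control library, a ratio of 2.95 (2.78 to 3.13). Against NONO the values were 26.1 and 10.5 in the lncPSCA and control libraries. Within the DBHS family, SFPQ had 0.668 reads per read of NONO in the lncPSCA library and 0.794 in the control library. The 3 noncoding genes together made up 14.0% of the reads of the 7 genes in the lncPSCA library and 6.02% in the control library.

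Per length, the order of the 7 genes was the same in both libraries. Levels per kilobase were taken over the union of annotated exons, which for NEAT1 is 22767 bases, near the length of its long form. Reads of the short form would be divided by this length too. As their share is not known, the level of NEAT1 per kilobase may be understated, and its place in the order depends on this length. NONO came first, at 138 CPM per kilobase in the lncPSCA library and 153 in the control library, followed by SFPQ at 65.7 and 86.4. RBM14 followed at 19.9 and 24.5 CPM per kilobase in the lncPSCA and control libraries, and PSPC1 at 15.4 and 19.4. NEAT1 was at 8.39 and 3.74 CPM per kilobase, MALAT1 at 2.31 and 1.74, and KCNQ1OT1 at 0.132 and 0.0476, each with lncPSCA first. No 2 neighbours in this order had overlapping counting intervals in either library. The nearest pair in the lncPSCA library, RBM14 (19.0 to 20.8) and PSPC1 (14.7 to 16.1), was still apart, although whether the order would hold between cultures was not measured.

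Transcript length moved with these differences. Across the 14993 measured genes with an annotated length, the Spearman correlation of log2 ratio with the longest transcript was 0.24; this is a description across genes of the same 2 libraries, which are not independent replicates. When genes were split by length into 10 groups of nearly equal size, NEAT1, MALAT1 and KCNQ1OT1 all fell in the group of longest transcripts. KCNQ1OT1, at 91667 bases, was the 2nd longest of all measured genes and NEAT1 the 15th. The median over the 1497 other genes of that group was 0.25 on the log2 scale, and 6.75% were higher, against 3.02% of all measured genes. Of these 1497, 71.9% had a log2 ratio above 0, against 48.1% of all measured genes. The protein genes lay in groups 4 to 6, whose median log2 ratios ran from -0.08 to -0.04.

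Centring the ratios along transcript length and GC content brought the log2 ratio of NEAT1 to 0.75, that of KCNQ1OT1 to 0.71 and that of MALAT1 to 0.18. All 3 values stayed above 0, and none of the 7 genes then met the rule. At the length of KCNQ1OT1 the trend rests on very few genes, so its centred value is especially uncertain. NEAT1 was centred at the length of its long form. As the share of the short form is not known, the centred value of NEAT1 is uncertain too. Of the 26 other measured genes with a transcript of at least 20 kb, 22 had a log2 ratio above 0 and 3 were higher, with a median of 0.33. Those 3, named after their values were seen, were TTN, the muscle giant titin, at a log2 ratio of 1.03, SYNE2, a nuclear envelope spectrin, at 1.42, and RNF213, an interferon-induced ubiquitin ligase, at 1.75.

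Among the 2075 other measured long noncoding genes, 2.12% were higher. Of the 75 with a transcript of at least 5 kb, 0 were higher and 2 were lower. At a share of 2.12%, a count of 0 among 75 genes says little. Of the 75, 51 had a log2 ratio above 0, and the median was 0.17. Of 2000 shorter ones, 44 (2.20%) were higher and 20 were lower, with a median of 0.03. Of the 283 other single-exon long noncoding genes, 4 were higher and 5 were lower. Of the 3760 measured protein-coding genes with a transcript of at least 5 kb, 4.95% were higher. The part of transcript length in the values of NEAT1 and KCNQ1OT1 was not tested.

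**Figure D2:**
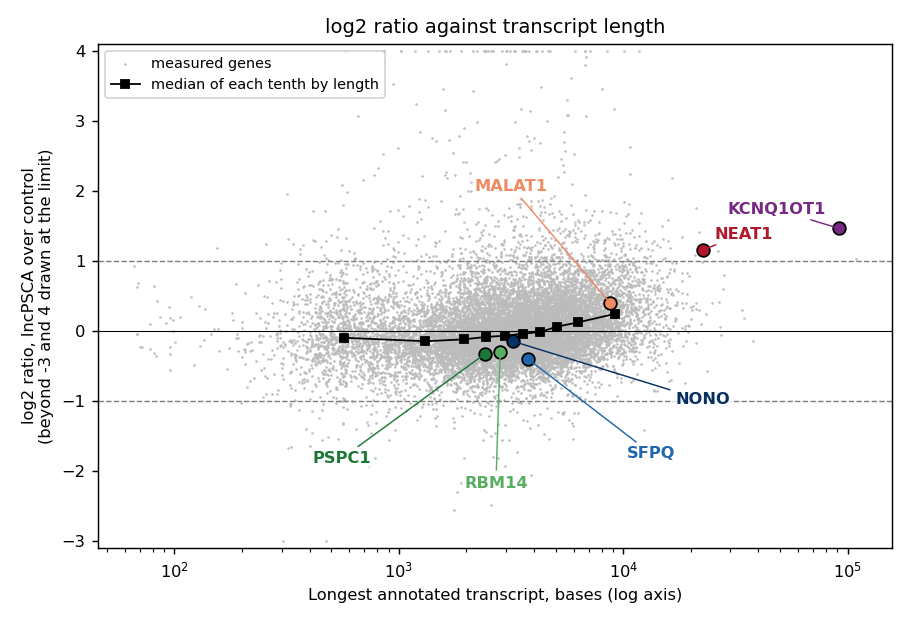
log2 ratio of the lncPSCA library over the control library against the longest annotated transcript of each measured gene (log axis), with the 7 genes named; black squares are medians of 10 groups by length and dashed lines mark a log2 ratio of 1 in either direction. NEAT1 (1.16) and KCNQ1OT1 (1.47) lie far to the right and above the median of the longest group, which is 0.25, and the 4 protein genes lie below 0.

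Other nuclear long noncoding RNAs did not meet the rule. Of 16 listed, 14 were matched and 10 measured; 6 of these had a log2 ratio above 0, and the median was 0.14. PVT1, a noncoding neighbour of MYC, was at 197 CPM in the lncPSCA library and 196 CPM in the control library. TUG1, a nuclear RNA first described in the retina, had 2087 reads in the lncPSCA library and 1079 in the control library, a fold of 1.74 (1.61 to 1.87). Named after its values were seen, HOTTIP, an RNA of the HOXA cluster, was at 1.32-fold (1.22 to 1.43).

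Other paraspeckle proteins also met the rule in neither direction. Of 37 listed genes 35 were measured, none was higher or lower, and the median log2 ratio was -0.18 beside -0.02 for all measured genes. Of the 35, 29 had a log2 ratio below 0, a number that lay between 23 and 30 over the other scalings and centrings. Of all 15440 measured genes, 8006 had a log2 ratio below 0. Log2 ratios tended to be lower at higher abundance across all 15440 measured genes (Spearman correlation with mean CPM -0.23, a description across genes of the same 2 libraries). The median of the 35 was -0.08 with centring along mean expression and -0.22 with centring along transcript length and GC content. The most abundant was HNRNPA1, a splicing regulator, at 1960 CPM in the lncPSCA library and 2324 CPM in the control library. Several members known to act on the 2 forms of NEAT1 are given after their values were seen. HNRNPK, which favours the long form, had a fold of 0.819 (0.805 to 0.834). CPSF6 and NUDT21, which form the cleavage factor that favours the short form, had folds of 0.961 (0.906 to 1.02) and 0.818 (0.774 to 0.865). TARDBP, which also promotes the short form, had 170 CPM in the lncPSCA library and 253 CPM in the control library, a fold of 0.673 (0.646 to 0.702). The identifiers matched to TAF15 and CELF6 had 0 reads in both libraries. Since the annotation release behind the counts is not stated, reads of these genes may stand under another identifier, and the 0 gives no limit on their level.

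Proteins of nuclear speckles, where MALAT1 resides, also met the rule in neither direction. All 10 listed genes were measured, and the median log2 ratio was -0.22. The log2 ratio was below 0 for 9 of them, and for 6 with centring along mean expression, where the median was -0.07. With centring along transcript length and GC content it was below 0 for all 10, and the median was -0.31. SRRM2, a scaffold of the speckle, was at 510 CPM in the lncPSCA library and 548 CPM in the control library, and the splicing factor SRSF3 at 442 and 551 CPM.

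RNase P cuts MALAT1 and the long form of NEAT1 at their 3′ ends, RNase Z trims the small RNA released from MALAT1, and METTL16 binds the MALAT1 triple helix. Of 13 listed genes for these steps 12 were measured and none was higher or lower. All 12 had a log2 ratio below 0, against 8006 of all 15440 measured genes, and the median of the 12 was -0.26. Of the 12, 1 lay above 0 under total-count scaling and 1 under centring along length and GC content. The median of the 12 was -0.16 with centring along mean expression and -0.25 with centring along length and GC content. ELAC2, which encodes RNase Z, was at 173 CPM in the lncPSCA library and 210 CPM in the control library. POP7, an RNase P subunit, was at 89.2 and 105 CPM.

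**Figure D3:**
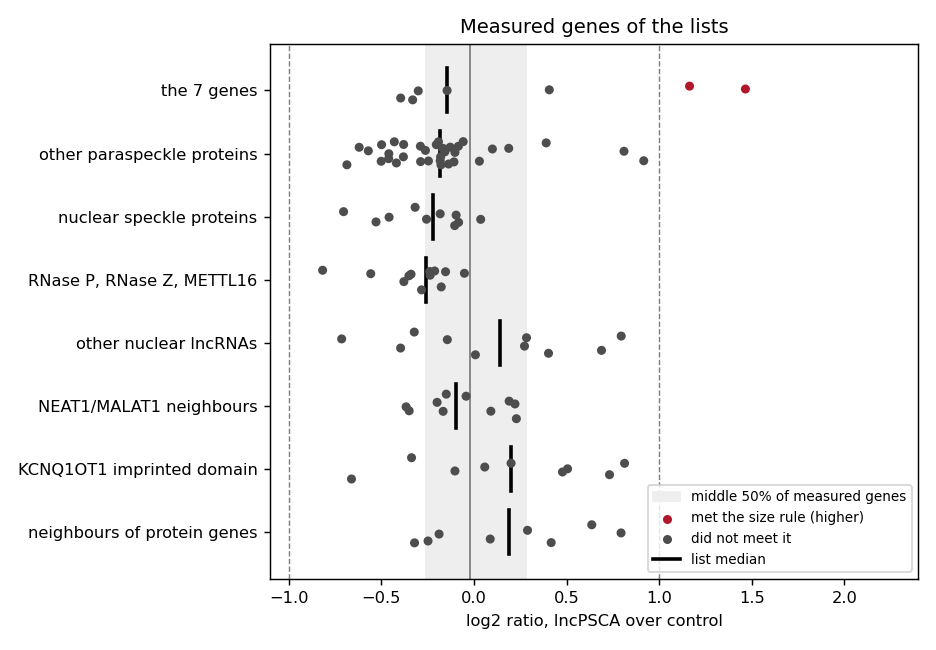
log2 ratio of the lncPSCA library over the control library for the measured genes of the lists shown; each point is 1 gene, thick bars are list medians, the grey band holds the middle 50% of all measured genes and dashed lines mark a log2 ratio of 1 in either direction. NEAT1 and KCNQ1OT1 are the points that met the rule, and the medians of the 3 lists of paraspeckle, speckle and processing proteins lie between -0.26 and -0.18.

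Of genes known to act on NEAT1 transcription or stability, 9 that are reported here met the rule in neither direction. Given after their values were seen, the hypoxia factor HIF1A was at 1.54-fold (1.42 to 1.68), the stress-activated factor ATF2 at 1.46-fold (1.29 to 1.66) and the heat shock factor HSF1 at 1.04-fold (0.973 to 1.11). ELAVL1, an RNA-stabilising protein, was at 0.791-fold (0.752 to 0.832). The part of any of these in the level of NEAT1 was not tested.

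The genes around NEAT1 and MALAT1 on chromosome 11 did not meet the rule. Of 14 listed neighbours 10 were measured, none was higher or lower, and their log2 ratios ran from -0.37 to 0.23. DPF2, a chromatin remodelling subunit, was at 121 CPM in the lncPSCA library and 124 CPM in the control library, and MAP3K11, a stress kinase, at 103 and 132 CPM.

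In the imprinted domain of KCNQ1OT1, 9 of 12 listed genes were measured and none was higher or lower. Their median log2 ratio was 0.20 and 6 of them lay above 0. The most abundant were CD81, a tetraspanin, at 240 CPM in the lncPSCA library and 230 CPM in the control library, and NAP1L4, a histone chaperone, at 148 and 187 CPM. Of the genes that KCNQ1OT1 is known to silence, given after their values were seen, CDKN1C, the cell cycle inhibitor p57, had 38 reads in the lncPSCA library and 19 in the control library, a fold of 1.79 (1.01 to 3.30). PHLDA2, a growth-restraining imprinted gene, was at 0.632-fold (0.567 to 0.704) and SLC22A18, a transporter, at 1.39-fold (1.22 to 1.59). These genes thus lay on both sides of 1.

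Neighbours of the protein genes were not higher or lower either, in 8 measured of 11 listed. ZMYM4, which lies near SFPQ, was at 72.1 CPM in the lncPSCA library and 46.4 CPM in the control library, and TAF1, near NONO, at 64.3 and 48.2 CPM. The read-through gene RBM14-RBM4, which overlaps RBM14 by 10722 bases on the same strand, had 0 reads in both libraries. How reads shared by overlapping genes were counted is not stated. The 0 thus gives no limit on the level of RBM14-RBM4, and the RBM14 count may lack such reads. PSPC1-AS2, which overlaps PSPC1 on the opposite strand, had 42 reads in the lncPSCA library and 63 in the control library.

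RefSeq promoter windows (GRCh38.p14), each running from 250 bases before to 50 after a start, were matched for MALAT1, RBM14, PSPC1 and NONO, in 5 windows; NEAT1, KCNQ1OT1 and SFPQ had no entry. They were searched on both strands for the core of the interferon-stimulated response element (GAAANNGAA), the heat shock element core (GAANNTTC) and the amino acid response element (TGATGNAAT), motifs that can overlap one another. None of the 5 windows held any of them, against 8.11%, 6.77% and 0.991% of all 35116 windows. No match says only that these letters are not in these windows.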

How the data were processed

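Total RNA of 2 HGC-27 cultures was sequenced. The authors deposited raw read counts per Ensembl gene, 1 column per library; per the submitters' processing notes, TopHat2 and HTSeq were used with hg19, with no version stated. Annotation release, strandedness, library kit and read filters were not stated.

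Symbols came from a table of Ensembl identifiers, which matched 52181 (81.9%) of them. Lengths, GC content, overlaps and positions came from GENCODE release 29, matched by identifier; its build (GRCh38) differs from that of the counts. CPM used TMM-scaled library sizes (edgeR 4.0.16), with factors of 1.02 for lncPSCA and 0.979 for control. The log2 ratio used a pseudocount of 1, and folds are ratios of CPM. Intervals are exact 95% counting intervals: Clopper-Pearson for folds, Poisson for levels, conditional odds ratios for read proportions. No molecular identifiers are mentioned, so 1 molecule may be counted more than once and intervals may be too narrow. Centring used lowess (statsmodels 0.14.6).

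The genes, lists and rules were chosen with earlier results of these data known. Named were the 7 genes, genes overlapping them, the 3 nearest to NEAT1, and per list up to 4 genes that met the rule or else the 2 most abundant. Scaling by total counts, by upper quartiles or by size factors (DESeq2 1.42.0) was tried as an alternative, as were other minima and pseudocounts, assumed spreads and centrings. Results of some listed genes are not reported here. Identity between the DBHS proteins was not computed.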

Additional observations from a re-analysis of the deposited data

How the results depend on the processing

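NEAT1 and KCNQ1OT1 were both higher under DESeq2 size factors, total counts, upper-quartile scaling, a pseudocount of 5, either CPM minimum and centring along mean expression. With an assumed coefficient of variation between cultures of 0.2, 1 of the 7 genes was higher (KCNQ1OT1, interval 1.53 to 5.07), and NEAT1 (1.29 to 3.89) fell short; with 0.4 the number was 0, and these intervals are wider by construction. Centring along transcript length and GC content also left 0; the cause was not tested. Over all 10 alternatives the log2 ratio of NEAT1 lay between 0.75 and 1.29, that of KCNQ1OT1 between 0.71 and 1.53, that of MALAT1 between 0.18 and 0.47, that of SFPQ between -0.42 and -0.24 and that of NONO between -0.17 and 0.02. Over all measured genes, 467 were higher and 92 lower. A minimum of 5 CPM, which tests fewer genes, gave 284 and 46, no minimum gave 612 and 150, and assumed coefficients of variation of 0.2 and 0.4 gave 215 and 27, and 105 and 5. With 1 free base (GAAANGAAA), the interferon element core was found in 1 member promoter, that of NONO, and in 3.12% of all windows. No paired analysis was possible because each group has 1 library, and no library could be left out. The 92 control reads of KCNQ1OT1 and 324 of MALAT1 limit their precision most.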
